A study of Mus musculus with 16 samples.

Results

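The 10 genes described here are the reticulons Rtn1, Rtn2, Rtn3 and Rtn4, the Nogo receptor genes Rtn4r, Rtn4rl1 and Rtn4rl2, the co-receptor gene Lingo1, the ligand gene Omg and the Nogo-interacting gene Rtn4ip1. They were taken by symbol from the 55335 genes of the count table, each symbol matched 1 Ensembl row, and all 10 were among the 19479 genes that passed the filter on low counts. The 16 RNA libraries came from perinatal mouse primary forebrain neuronal cultures, all of which had received a lentiviral vector. In 4 libraries each, the vector carried a short hairpin RNA (labelled shRNA, here the unmutated hairpin), that hairpin with 2 point mutations (shRNA_2bp, the 2bp hairpin), that hairpin with 5 point mutations (shRNA_5bp, the 5bp hairpin), or no hairpin (Empty_Vector). A hairpin is cut by the cell's microRNA machinery into a guide RNA that lowers transcripts with which it pairs. The labels name neither the transcript the hairpin was made against nor the sequence of any hairpin, and they do not say that the libraries of a group were separate cultures, so the p-values measure the spread between these libraries only. Total counts per library were 36143806 to 41152791 with the unmutated, 41618901 to 49824569 with the 2bp and 35521472 to 47401867 with the 5bp hairpin, and 33795369 to 46187568 with the empty vector. In cultures of mixed cells, fewer cells of a type and less RNA per cell cannot be told apart.

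Reticulons are membrane proteins that bend and stabilise the tubules of the endoplasmic reticulum, and all share a C-terminal reticulon homology domain. Rtn4 encodes Nogo in its long form Nogo-A and the shorter forms Nogo-B and Nogo-C, which differ in start site and splicing. On the surface of oligodendrocytes and of some neurons, Nogo-A limits axon growth and plasticity by binding the glycolipid-anchored receptor encoded by Rtn4r. That receptor has no cytoplasmic part and signals to RhoA and its kinases through partners that include the Lingo1 protein. The product of Omg, oligodendrocyte myelin glycoprotein, is another ligand of the same receptor and is made by neurons as well as by oligodendrocytes.

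Rtn4 carried by far the largest difference of the 10 genes. Its level was stepped by hairpin, lowest with the unmutated hairpin, higher with 2 mutations, and within the range of the empty vector or just below it with 5. Rtn4 (ENSMUSG00000020458.16, on the plus strand of chromosome 11 in GRCm38, from 29692947 to 29744331) was read 1146, 1337, 1168 and 1185 times in the unmutated-hairpin libraries, and 6107, 5075, 5436 and 5692 times in the 2bp libraries. The counts were 38367, 39411, 30412 and 33564 in the 5bp libraries and 29348, 28098, 39894 and 37139 in the empty-vector libraries. Even the lowest of these counts was large enough that counting error was small beside the differences.

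Levels are given as CPM, the counts scaled to a common library size with TMM factors. Rtn4 was at 30.9, 31.3, 29.9 and 29.9 CPM with the unmutated hairpin, against 842, 837, 881 and 891 CPM with the empty vector. The 2bp libraries held 130.3, 126, 128 and 122 CPM and the 5bp libraries 836, 773, 845 and 856 CPM. No unmutated-hairpin library overlapped any other group, nor did any 2bp library, whereas the 5bp and empty-vector libraries overlapped. Set against the mean of the empty-vector libraries, the Rtn4 transcript that was left amounted to 3.53% ± 0.0802 with the unmutated, 14.7% ± 0.394 with the 2bp and 95.9% ± 4.31 with the 5bp hairpin (SD, n = 4 each).

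Against the empty vector, Rtn4 fell 28.3-fold with the unmutated and 6.82-fold with the 2bp hairpin, with 95% intervals of the log2 fold change of -4.92 to -4.72 and -2.86 to -2.68. The 3 hairpins were also set against each other, which tests the steps between them. Rtn4 was 4.15-fold lower with the unmutated than with the 2bp hairpin, a log2 fold change of -2.05 ± 0.04 (SE; adjusted p = 4.18e-20, edgeR). The unmutated hairpin left it 27.1-fold lower than the 5bp hairpin, with a log2 fold change of -4.76 ± 0.05 (SE; adjusted p = 1.09e-25, edgeR). Between the 2bp and the 5bp hairpin the level was 6.54-fold lower with the 2 mutations, with a log2 fold change of -2.71 ± 0.04 (SE; adjusted p = 4.26e-22, edgeR). For the 5bp hairpin against the empty vector the log2 fold change was -0.06 ± 0.04 (SE; adjusted p = 0.203, edgeR), with a 95% interval of -0.14 to 0.02, so the test did not call a difference.

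Among all 19479 genes tested, the log2 fold change of Rtn4 ranked number 1 from the lowest with the unmutated hairpin against the empty vector, and number 186 with the 2bp hairpin. In the comparison of the 5bp hairpin with the empty vector, 17386 genes had a larger absolute log2 fold change than Rtn4. The counts are per gene and do not separate Nogo-A, Nogo-B and Nogo-C. The 3′ end of Rtn4 shares 1284 exonic bases with Eml6, a microtubule-associated protein gene on the opposite strand, and the sources used here do not state whether counting used strand. Eml6 lay at 117 to 128 CPM with the unmutated, 86.9 to 92.3 CPM with the 2bp and 69.9 to 91.8 CPM with the 5bp hairpin, and at 109 to 118 CPM with the empty vector. Its log2 fold change against the empty vector was 0.10 ± 0.06 with the unmutated hairpin (SE, adjusted p = 0.178 by edgeR). With the 2bp hairpin it was -0.35 ± 0.06 (SE, adjusted p = 1.74e-05 by edgeR) and with the 5bp hairpin -0.55 ± 0.06 (SE, adjusted p = 5.93e-08 by edgeR). The part of the shared bases in the Rtn4 counts was not tested.

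**Figure D1:**
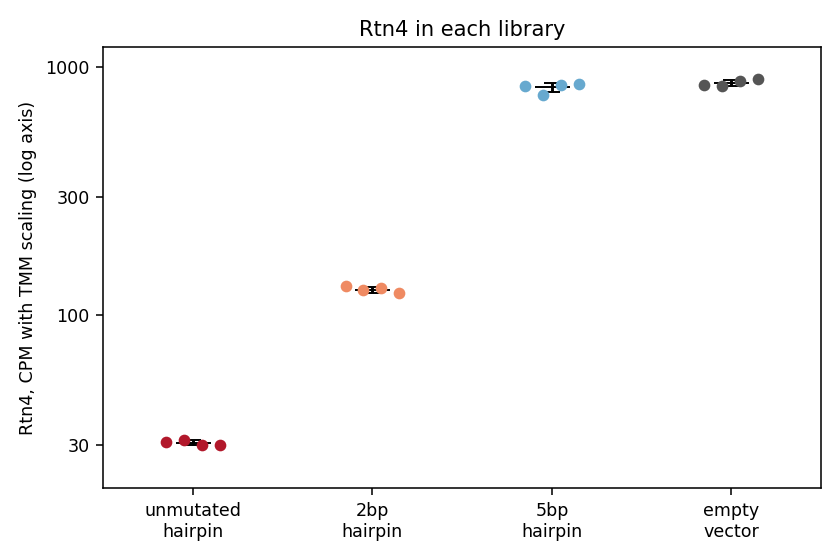
Rtn4 in CPM with TMM scaling (y axis, logarithmic) for each of the 4 libraries (points) of the 4 groups (x axis), with the group mean and SD (black). The unmutated-hairpin libraries lie at 29.9 to 31.3 CPM and the 2bp libraries at 122 to 130.3 CPM, while the 5bp and empty-vector libraries overlap.

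None of the other reticulons was called higher with the unmutated hairpin, where Rtn4 was lowest. Rtn3 fell with the unmutated and the 5bp hairpin, Rtn2 rose with the 2bp hairpin, and Rtn1 did not pass the test against the empty vector with any hairpin. Rtn3 (ENSMUSG00000024758.15, on the minus strand of chromosome 19 in GRCm38, from 7425901 to 7483281) encodes a reticulon that acts as a receptor for the autophagy of tubular endoplasmic reticulum and that binds the amyloid-forming protease BACE1. It was at 717, 736, 740.1 and 712 CPM with the unmutated and 793, 829, 863 and 896 CPM with the 5bp hairpin, against 1023, 1072, 1087 and 1094 CPM with the empty vector. The 2bp libraries held 1066, 1073, 1149.9 and 1107 CPM and overlapped the empty vector. The unmutated-hairpin libraries lay below all others and the 5bp libraries below those of the 2bp hairpin and the empty vector. The log2 fold change against the empty vector was -0.56 ± 0.04 (SE; adjusted p = 4.85e-10, edgeR) for the unmutated and -0.34 ± 0.04 (SE; adjusted p = 3.57e-07, edgeR) for the 5bp hairpin. The unmutated and the 5bp hairpin also differed from each other, by -0.22 ± 0.04 (SE; adjusted p = 0.000110, edgeR).

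Rtn2 (ENSMUSG00000030401.16, on the plus strand of chromosome 7 in GRCm38, from 19282624 to 19296160), whose human counterpart binds spastin and is mutated in a hereditary spastic paraplegia, was at 125, 114, 110.0 and 118 CPM with the 2bp hairpin, against 92.7, 87.0, 89.5 and 90.5 CPM with the empty vector. Every 2bp library lay above every other library, and the log2 fold change was 0.38 ± 0.06 (SE; adjusted p = 4.40e-06, edgeR). With the unmutated hairpin it was at 104, 92.5, 89.9 and 89.7 CPM and with the 5bp hairpin at 93.6, 81.5, 98.8 and 92.9 CPM, and both ranges overlapped the empty vector (log2 fold changes 0.06 ± 0.06 and 0.03 ± 0.06; edgeR adjusted p = 0.398 and 0.708). Rtn1 (ENSMUSG00000021087.18, on the minus strand of chromosome 12 in GRCm38, from 72211752 to 72409054), a reticulon of neurons and neuroendocrine cells, stayed close to its empty-vector level. It was read at 1186, 1147, 1120.4 and 1110.5 CPM with the unmutated hairpin, 1153, 1158, 1186 and 1190.1 CPM with the 2bp hairpin, 1235, 1189.7, 1339 and 1303 CPM with the 5bp hairpin and 1168, 1193, 1205 and 1206 CPM with the empty vector. All 3 log2 fold changes against the empty vector lay between -0.06 and 0.09, with 95% intervals of -0.15 to 0.02, -0.11 to 0.06 and 0.00 to 0.17 in the order of 0, 2 and 5 mutations. For the 5bp hairpin the edgeR adjusted p was 0.0708, and the difference was called with upper quartile factors (adjusted p = 0.00863), with a stricter filter (adjusted p = 0.0309) and without 5bp library 2 (log2 fold change 0.12, adjusted p = 0.0150).

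The 4 reticulons thus differed in which hairpins changed them. Whether upstream sequence has a part in this was not tested. The 250 bases before an annotated start of each are printed as a description only. They are RefSeq sequences on GRCm38.p6, printed 5′ to 3′ on the strand of the gene, and RefSeq entries were matched for 8 of the 10 genes. Capitals mark matches on either strand to the motifs searched, which were the GC box GGGCGG, the CCAAT box, the TATA box TATAAA, the E-box CACGTG and the cyclic AMP response half-site TGACGT.
Rtn4: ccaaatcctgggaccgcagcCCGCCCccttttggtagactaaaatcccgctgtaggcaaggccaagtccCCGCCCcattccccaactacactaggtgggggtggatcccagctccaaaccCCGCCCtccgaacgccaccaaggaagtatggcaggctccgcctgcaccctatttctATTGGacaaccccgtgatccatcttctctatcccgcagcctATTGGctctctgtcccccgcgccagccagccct
Rtn3: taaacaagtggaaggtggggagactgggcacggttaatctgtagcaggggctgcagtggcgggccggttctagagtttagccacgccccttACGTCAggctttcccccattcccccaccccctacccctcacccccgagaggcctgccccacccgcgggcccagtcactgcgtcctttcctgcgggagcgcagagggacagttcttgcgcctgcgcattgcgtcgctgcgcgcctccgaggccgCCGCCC
Rtn2: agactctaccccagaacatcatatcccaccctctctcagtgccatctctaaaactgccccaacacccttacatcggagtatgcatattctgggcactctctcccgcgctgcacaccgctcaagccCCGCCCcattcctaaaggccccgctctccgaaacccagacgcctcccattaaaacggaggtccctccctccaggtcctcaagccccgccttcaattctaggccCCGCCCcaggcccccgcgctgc
Rtn1: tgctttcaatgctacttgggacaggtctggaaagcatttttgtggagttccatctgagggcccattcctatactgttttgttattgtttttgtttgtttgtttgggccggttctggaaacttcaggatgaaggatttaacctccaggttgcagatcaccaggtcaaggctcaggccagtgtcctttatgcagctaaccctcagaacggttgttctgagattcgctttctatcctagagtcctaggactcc
The windows are chr11:29692648-29692897 and chr7:19282374-19282623 on the plus strand, and chr19:7483292-7483541 and chr12:72409055-72409304 on the minus strand. Rtn4 and Rtn1 have further annotated starts, and the counts do not tell which start was used. The GC box was matched in the windows of Rtn4, Rtn3 and Rtn2 and in 32.7% of all 32851 promoter windows of this length. CCAAT was matched 2 times in the window of Rtn4 and in 33.8% of all windows. TGACGT was matched 1 time in the window of Rtn3 and in 6.47% of all windows. TATAAA and CACGTG, present in 12.4% and 6.02% of all windows, were in none of the 4. The Rtn1 window printed held none of the motifs, whereas the windows of its other 2 annotated starts held 1 and 3 GC boxes, and 1 of these windows also held a CCAAT match. Of the other 2 annotated starts of Rtn4, 1 had a window with 1 GC box and no other motif, and 1 had a window with none of the motifs. A match describes letters in the window and does not show a binding site.

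Levels of different genes were compared per length, as CPM per kilobase of exon. The summed level of the 4 reticulons was 399 ± 8.16 CPM per kb with the unmutated, 498 ± 10.1 with the 2bp and 561 ± 25.9 with the 5bp hairpin, and 595 ± 12.9 with the empty vector (SD, n = 4 each). Rtn4 made up 1.09% ± 0.0158 of that sum with the unmutated, 3.64% ± 0.139 with the 2bp and 21.1% ± 0.547 with the 5bp hairpin, and 20.7% ± 0.341 with the empty vector. These shares are ratios within a library and do not depend on the scaling factor. The sums do depend on it. In plain CPM, without TMM factors, they were 410 ± 10.1 CPM per kb with the unmutated and 471 ± 6.78 with the 2bp hairpin. They were then 583 ± 14.7 with the 5bp hairpin and 586 ± 6.41 with the empty vector (SD, n = 4 each). Rtn1 made up 56.8 to 58.4% with the unmutated, 46.8 to 47.5% with the 2bp and 44.9 to 46.1% with the 5bp hairpin, and 39.9 to 40.5% with the empty vector, over the libraries of each group. Rtn3 made up 35.0 to 37.2%, 43.3 to 44.9% and 28.9 to 31.0% with these hairpins, and 35.2 to 36.1% with the empty vector.

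**Figure D2:**
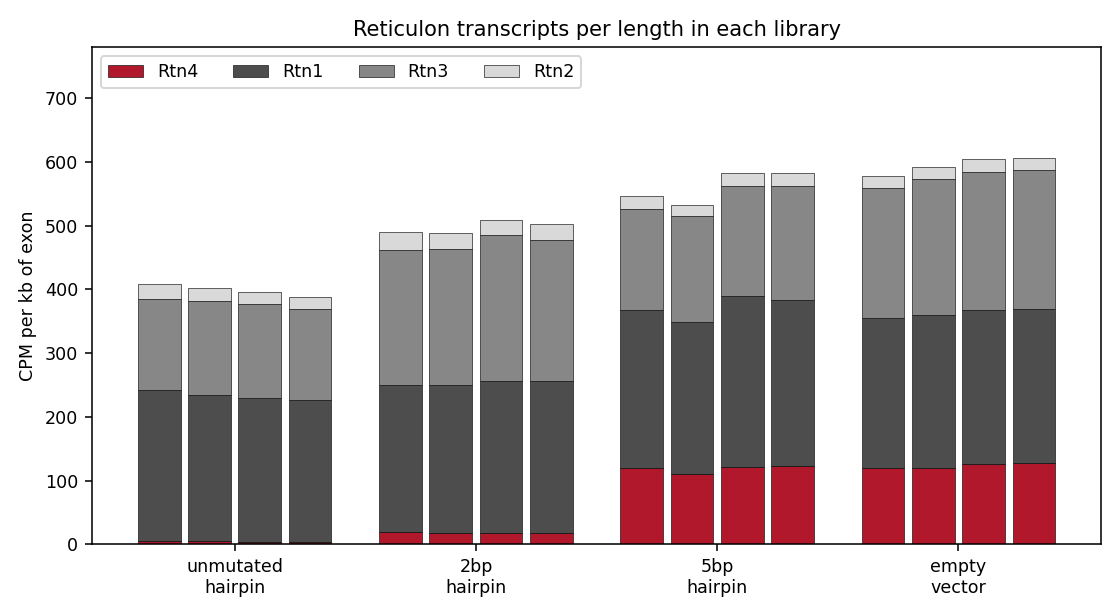
Summed level of the 4 reticulon genes in CPM per kb of exon (y axis) for each library (1 bar each, grouped by vector on the x axis), split into Rtn4, Rtn1, Rtn3 and Rtn2. The Rtn4 part at the foot of the bars is 1.09% ± 0.0158 of the sum with the unmutated hairpin and 20.7% ± 0.341 with the empty vector (mean and SD over 4 libraries).

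Rtn4r and Rtn4rl1 fell with the 2bp and the 5bp hairpin, and Rtn4rl2 fell with the unmutated and the 5bp hairpin. Rtn4r was lower with the 2bp than with the 5bp hairpin (log2 fold change -0.75 ± 0.06 SE, adjusted p = 6.30e-11 by edgeR), Rtn4rl1 was higher (0.37 ± 0.06 SE, adjusted p = 5.55e-06 by edgeR), and Rtn4rl2 was higher as well (0.34 ± 0.06 SE, adjusted p = 9.67e-05 by edgeR). Rtn4r (ENSMUSG00000043811.5, on the plus strand of chromosome 16 in GRCm38, from 18127642 to 18152408), which encodes the main receptor for Nogo-A, was at 30.7, 25.9, 28.4 and 29.4 CPM with the 2bp hairpin, against 55.2, 51.9, 58.9 and 58.3 CPM with the empty vector. The 2bp libraries lay below all other libraries, and the log2 fold change was -0.97 ± 0.06 (SE; adjusted p = 1.10e-12, edgeR), a 1.96-fold difference. The 5bp libraries, at 49.5, 45.7, 49.6 and 48.3 CPM, also lay below the empty vector (log2 fold change -0.22 ± 0.05 SE, adjusted p = 0.00173 by edgeR). The unmutated hairpin gave 55.9, 50.6, 49.1 and 52.4 CPM, which overlapped the empty vector (log2 fold change -0.11 ± 0.05 SE, adjusted p = 0.118 by edgeR). With the replicate number as a block this last comparison passed, with a log2 fold change of -0.11 and an adjusted p of 0.0490, and without unmutated-hairpin library 1 it passed as well (-0.15, adjusted p = 0.0484). The hairpin with the least Rtn4 was thus not the one with the least Rtn4r, and Rtn4r was 1.82-fold higher with the unmutated than with the 2bp hairpin (log2 fold change 0.86 ± 0.06 SE, adjusted p = 8.22e-12 by edgeR).

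Rtn4rl1 (ENSMUSG00000045287.6, on the plus strand of chromosome 11 in GRCm38, from 75193783 to 75267769) encodes the Nogo receptor homologue that binds chondroitin sulfate proteoglycans. It was at 33.1, 31.6, 32.2 and 31.4 CPM with the 5bp and 41.3, 38.5, 43.1 and 42.4 CPM with the 2bp hairpin, against 47.9, 47.5, 54.7 and 53.7 CPM with the empty vector. The 5bp libraries were the lowest, the 2bp libraries lay between, and neither overlapped the empty vector. The log2 fold change was -0.67 ± 0.06 (SE; adjusted p = 1.10e-09, edgeR) for the 5bp and -0.30 ± 0.06 (SE; adjusted p = 5.80e-05, edgeR) for the 2bp hairpin. The unmutated-hairpin libraries, at 49.9, 44.9, 51.8 and 51.9 CPM, overlapped the empty vector (log2 fold change -0.04 ± 0.06 SE, adjusted p = 0.616 by edgeR).

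Rtn4rl2 (ENSMUSG00000050896.12, on the minus strand of chromosome 2 in GRCm38, from 84871924 to 84886710), whose product binds myelin-associated glycoprotein, was at 57.0, 47.4, 58.0 and 58.2 CPM with the unmutated and 53.6, 47.1, 56.8 and 50.9 CPM with the 5bp hairpin, against 62.1, 59.8, 65.2 and 67.4 CPM with the empty vector. Both sets of libraries lay wholly below the empty vector, by log2 fold changes of -0.21 ± 0.07 (SE; adjusted p = 0.0142, edgeR) and -0.29 ± 0.07 (SE; adjusted p = 0.000672, edgeR). The call for the unmutated hairpin rested on single libraries: without unmutated-hairpin library 2 the log2 fold change was -0.14 (adjusted p = 0.0700), and without empty-vector library 4 it was -0.18 (adjusted p = 0.0515). The 2bp libraries, at 69.3, 62.4, 63.7 and 67.9 CPM, overlapped the empty vector (log2 fold change 0.05 ± 0.06 SE, adjusted p = 0.536 by edgeR).

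Lingo1, the co-receptor gene, fell with the unmutated and the 5bp hairpin. Lingo1 (ENSMUSG00000049556.5, on the minus strand of chromosome 9 in GRCm38, from 56618475 to 56796468) was at 202, 198, 213 and 204 CPM with the unmutated and 205, 199, 230.1 and 205 CPM with the 5bp hairpin, against 303, 306, 332 and 329.6 CPM with the empty vector. Neither group overlapped the empty vector, and the log2 fold changes were -0.64 ± 0.05 (SE; adjusted p = 3.24e-10, edgeR) and -0.60 ± 0.05 (SE; adjusted p = 2.75e-10, edgeR). The unmutated and the 5bp libraries overlapped each other, with a difference of -0.04 ± 0.05 (SE; adjusted p = 0.505, edgeR) and a 95% interval of -0.14 to 0.06. The 2bp libraries, at 296, 284, 289 and 305 CPM, overlapped the empty vector in part. Their log2 fold change of -0.12 ± 0.05 (SE; adjusted p = 0.0341, edgeR) was called, but the call was lost with DESeq2's size factors (adjusted p = 0.0527) and on leaving out empty-vector library 3 or 4 or 2bp library 1, 2 or 3 (adjusted p 0.0576 to 0.115, log2 fold change -0.12 to -0.09).

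Rtn3 and Lingo1 were the pair, among the 45 pairs of the 10 genes, with the highest Pearson r of log2 CPM over the 16 libraries (0.92). The libraries of a group share their vector and the values share the scaling, so this is a description.

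The ligand gene Omg (ENSMUSG00000049612.10, on the minus strand of chromosome 11 in GRCm38, from 79500982 to 79504084) had the largest fall after Rtn4 among the 10 genes against the empty vector. It was at 13.1, 15.6, 19.4 and 13.6 CPM with the 5bp hairpin and 23.5, 24.3, 31.9 and 23.9 CPM with the unmutated hairpin, against 39.8, 37.0, 37.6 and 36.6 CPM with the empty vector. The 5bp libraries were the lowest, the unmutated-hairpin libraries lay between, and neither overlapped the empty vector. The log2 fold change was -1.30 ± 0.11 (SE; adjusted p = 1.79e-08, edgeR) for the 5bp hairpin, a 2.46-fold difference, and -0.54 ± 0.11 (SE; adjusted p = 0.000493, edgeR) for the unmutated hairpin. The 2bp libraries were at 42.1, 44.0, 42.5 and 39.0 CPM and overlapped the empty vector (log2 fold change 0.15 ± 0.10 SE, adjusted p = 0.221 by edgeR). That difference was called without the filter on low counts (adjusted p = 0.0470) and in a fit of the 8 libraries alone (adjusted p = 0.0412). The 2bp hairpin therefore left 2.72-fold more Omg transcript than the 5bp hairpin (log2 fold change 1.45 ± 0.11 SE, adjusted p = 2.05e-09 by edgeR).

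Omg lies within an intron of Nf1, the neurofibromin gene, on the opposite strand, and shares no exonic base with it. Nf1 was at 293 to 341 CPM with the unmutated and 227 to 254 CPM with the 2bp hairpin. It was at 205 to 225 CPM with the 5bp hairpin and 275 to 298 CPM with the empty vector. The part of Nf1 transcripts in the Omg counts was not tested. Because Omg is also a gene of oligodendrocytes, the summed CPM of 11 oligodendrocyte lineage markers is given beside it. The sum was 86.9 to 106 with the unmutated, 55.2 to 62.7 with the 2bp and 88.1 to 107 with the 5bp hairpin, against 59.2 to 71.6 with the empty vector. The sum did not move one way in its members. With the 5bp hairpin Mbp, the myelin basic protein gene, averaged 68.5 ± 5.62 CPM, against 25.8 ± 2.37 CPM with the empty vector. The lineage factor genes Olig1 and Olig2 averaged 9.35 ± 2.41 and 2.05 ± 0.520 CPM with the 5bp hairpin, against 18.2 ± 4.61 and 5.21 ± 0.830 CPM with the empty vector (SD, n = 4 each). Of the 7 markers tested, 4 were called higher and 0 lower with the unmutated hairpin. The calls were 1 higher and 2 lower with the 2bp, and 2 higher and 2 lower with the 5bp hairpin. Of all genes tested, 20.8%, 32.5% and 28.4% were called higher with the unmutated, 2bp and 5bp hairpin, and 19.5%, 30.8% and 26.5% lower. The part of oligodendrocyte lineage cells in the Omg result was not tested. Of the 11 markers, the myelin genes Mag, Mog and Mobp and the lineage factor gene Sox10 did not pass the filter on low counts, and Mag was at 0 in all libraries of the 2bp and 5bp hairpins.

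Rtn4ip1 was the only one of the 10 genes that rose with all 3 hairpins. Its product, first found as a partner of Nogo, is a mitochondrial enzyme that takes part in coenzyme Q synthesis, and its human counterpart is mutated in an inherited optic neuropathy. Rtn4ip1 (ENSMUSG00000019864.14, on the plus strand of chromosome 10 in GRCm38, from 43901807 to 43957201) was at 23.6, 22.8, 21.7 and 26.5 CPM with the unmutated hairpin, 30.4, 25.0, 29.5 and 32.4 CPM with the 2bp hairpin and 23.3, 21.3, 21.2 and 20.8 CPM with the 5bp hairpin, against 15.6, 17.2, 15.9 and 15.7 CPM with the empty vector. Every hairpin library lay above every empty-vector library. The log2 fold change was 0.56 ± 0.07 (SE; adjusted p = 2.52e-06, edgeR) with the unmutated, 0.87 ± 0.07 (SE; adjusted p = 7.12e-10, edgeR) with the 2bp and 0.43 ± 0.07 (SE; adjusted p = 3.47e-05, edgeR) with the 5bp hairpin. The rise with the 2bp hairpin exceeded that with the unmutated (difference unmutated minus 2bp -0.31 ± 0.07 SE, adjusted p = 0.000635 by edgeR), although their libraries overlapped. The unmutated and 5bp libraries overlapped as well, and their difference was not called (0.13 ± 0.07 SE, adjusted p = 0.145 by edgeR). The 3 comparisons share the empty-vector libraries, so a deviation of those libraries would enter all of them. With all 16 libraries together, Crybg1, which overlaps Rtn4ip1 by 122 exonic bases on the opposite strand, had 91 counts.

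**Figure D3:**
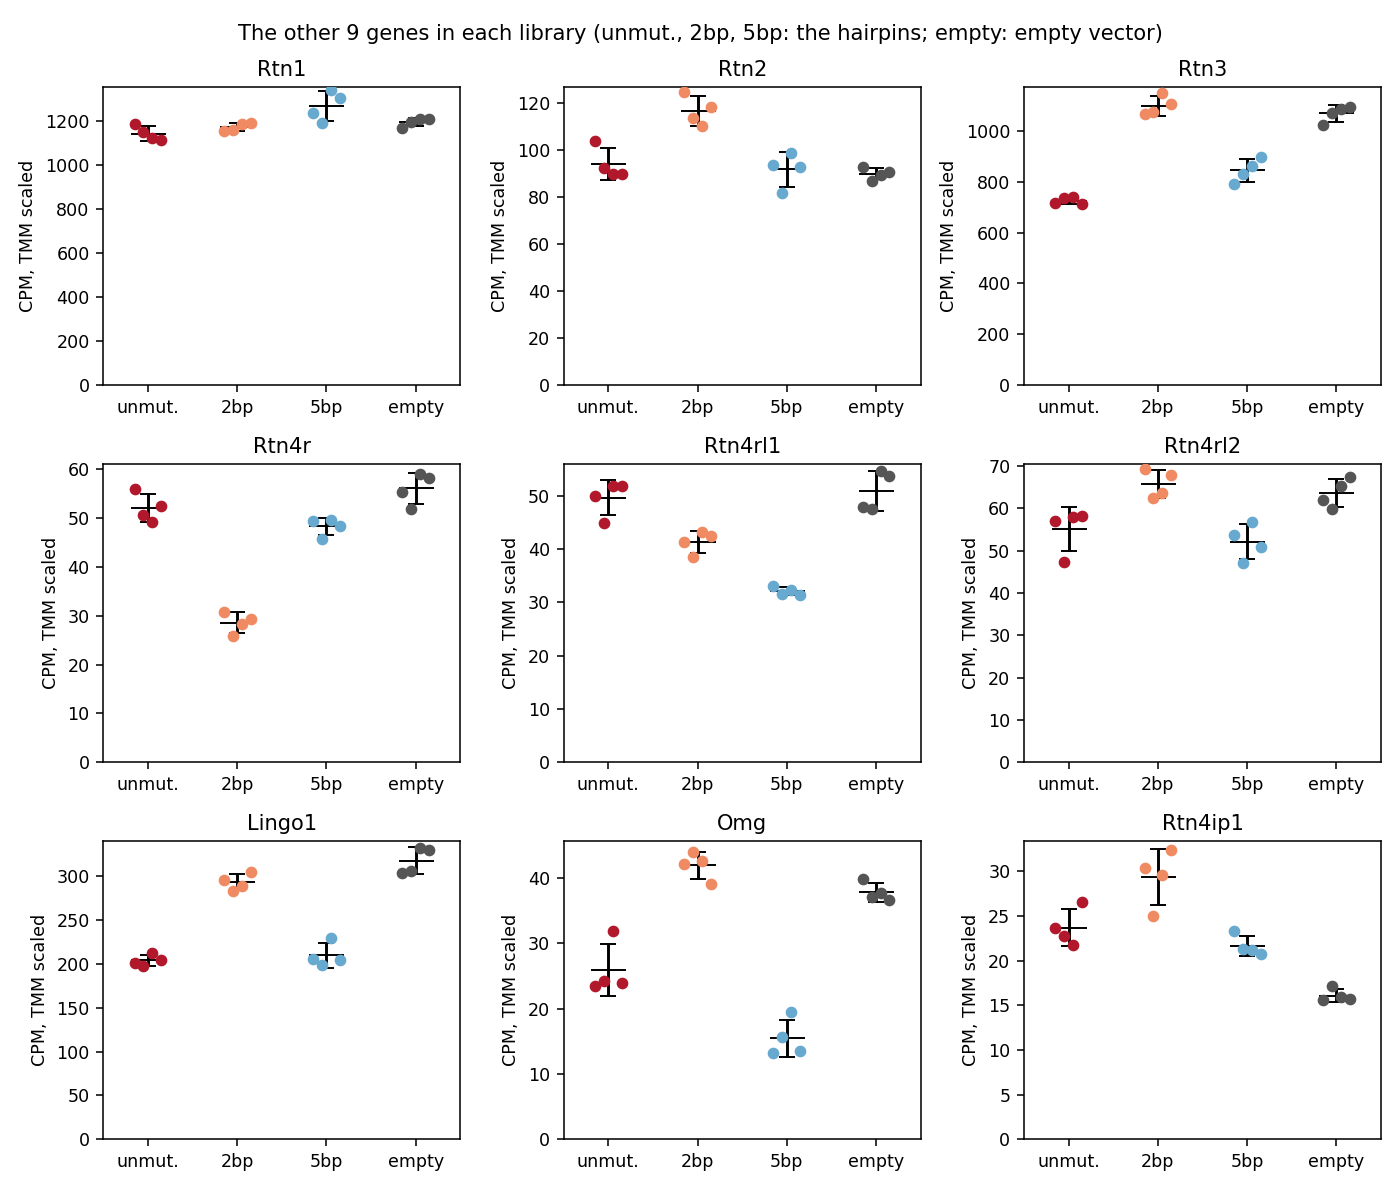
CPM with TMM scaling (y axes, each from 0) of the 9 genes other than Rtn4 in every library (points), with the mean and SD of each group (black), by vector on the x axis. Rtn3, Lingo1 and Omg are lower with the unmutated and 5bp hairpins than with the empty vector, Rtn4r is lowest with the 2bp hairpin, and Rtn4ip1 is higher with all 3 hairpins.

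The counts over the 10 genes are to be read against a background in which a large share of all genes was called. With the unmutated hairpin against the empty vector, 6 of the 10 genes were called, 1 higher and 5 lower, where 40.3% of all genes tested were, 20.8% higher and 19.5% lower. With the 2bp hairpin 6 of the 10 were called, 2 higher and 4 lower, with 63.3% of all genes called, 32.5% higher and 30.8% lower. With the 5bp hairpin 7 were called, 1 higher and 6 lower, with 54.9% of all genes called, 28.4% higher and 26.5% lower. With so few genes these counts do not set the 10 apart from the rest. The median log2 fold change of the 10 was -0.16, 0.01 and -0.25 for the unmutated, 2bp and 5bp hairpin, beside 0.01, -0.01 and 0.03 over all genes. In absolute size the medians were 0.38, 0.23 and 0.31, beside 0.23, 0.42 and 0.32 over all genes.

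Between hairpins, the unmutated and the 2bp hairpin differed in 9 of the 10 genes (2 higher and 7 lower with the unmutated), where 62.7% of all genes were called, 31.2% higher and 31.5% lower. The unmutated and the 5bp hairpin differed in 5 (2 higher and 3 lower with the unmutated), with 55.3% of all genes called, 26.8% higher and 28.5% lower. The 2bp and the 5bp hairpin differed in 10 (7 higher and 3 lower with the 2bp), with 65.9% of all genes called, 32.3% higher and 33.6% lower. In that last comparison the call for Rtn1 (log2 fold change -0.11 ± 0.04 SE, adjusted p = 0.0167 by edgeR) was lost with DESeq2's size factors and on leaving out 2bp library 1 or 5bp library 3 or 4 (adjusted p 0.0522 to 0.0747 and log2 fold change -0.10 to -0.09 over these 4 settings). 

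**Figure D4:**
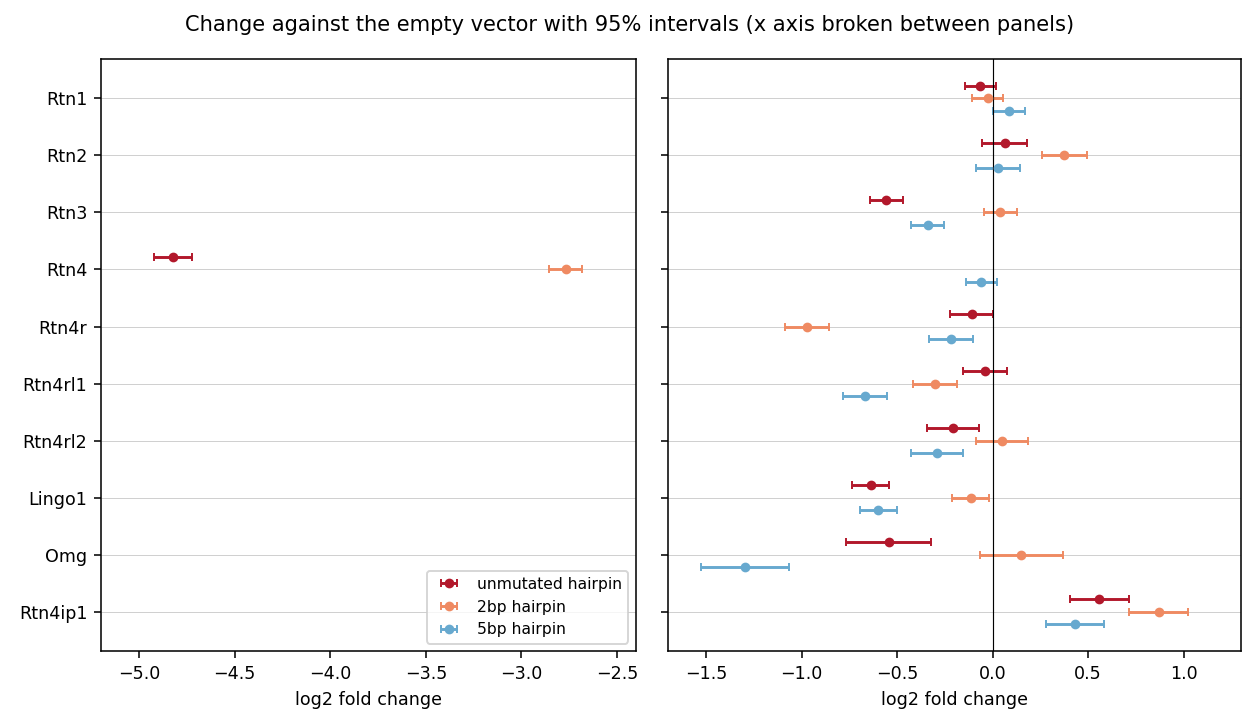
Log2 fold change against the empty vector (x axis, broken between the panels, both panels on 1 scale) with its 95% interval for each of the 10 genes (y axis) and the 3 hairpins (colours). Rtn4 stands alone in the left panel with the unmutated and 2bp hairpins, and Rtn4ip1 is the only gene to the right of 0 with all 3 hairpins by the test.

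Per kilobase of exon, the order of the 10 genes with the empty vector was Rtn1 (239.5 ± 3.59 CPM per kb; SD, n = 4), Rtn3 (213 ± 6.43), Rtn4 (123 ± 3.89), Lingo1 (67.4 ± 3.24), Rtn4rl2 (42.3 ± 2.23), Rtn4r (28.9 ± 1.67), Rtn2 (19.6 ± 0.516), Omg (16.96 ± 0.643), Rtn4rl1 (14.4 ± 1.07) and Rtn4ip1 (3.53 ± 0.162). No neighbours in this order overlapped between libraries. Rtn1 and Rtn3 had the highest places with every hairpin on this scale. Rtn4, in place 3 with the empty vector, was in place 10 with the unmutated hairpin (4.36 ± 0.0990 CPM per kb), place 7 with the 2bp hairpin (18.1 ± 0.486) and place 3 with the 5bp hairpin (118 ± 5.32). In the 2bp libraries Rtn4 and its neighbour Omg overlapped, and in the unmutated-hairpin libraries Rtn4rl1 and Omg did, and these were the only overlapping neighbours in the 4 orders. The order depended on the length used. Per kilobase of the longest transcript, Rtn4 was in place 6 with the 2bp hairpin, at 26.5 to 28.2 CPM per kb, and did not overlap Omg, at 17.5 to 19.8. With the 5bp hairpin it was then in place 2, at 167 to 185, and overlapped Rtn3, and its places with the unmutated hairpin and the empty vector were as above.

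Genes with a pattern like that of Rtn4 were sought among 10880 genes with a mean of at least 2 on the log2 CPM scale, as those with the highest Pearson r of log2 CPM over the 16 libraries. They were Zbed4, a zinc finger gene (r = 0.982), Ddit4, a stress-induced inhibitor of the mTORC1 kinase (r = 0.980), and Sugt1, a co-chaperone gene (r = 0.979). Their falls were smaller than that of Rtn4. Ddit4 was at 28.0 to 30.8 CPM with the unmutated, 59.6 to 61.5 CPM with the 2bp and 98.8 to 112 CPM with the 5bp hairpin, and at 91.1 to 96.8 CPM with the empty vector. Zbed4 was at 6.11 to 6.76 CPM, 7.88 to 9.28 CPM and 11.8 to 14.4 CPM in the same order of hairpins, against 12.9 to 14.3 CPM with the empty vector. The log2 fold change of the unmutated hairpin against the empty vector was -1.68 ± 0.04 (SE; adjusted p = 2.94e-17, edgeR) for Ddit4, -1.09 ± 0.08 (SE; adjusted p = 1.43e-10, edgeR) for Zbed4 and -0.36 ± 0.04 (SE; adjusted p = 5.63e-08, edgeR) for Sugt1. The gene most like Rtn3 was Kctd12, which encodes an auxiliary subunit of GABA-B receptors (r = 0.989), and the gene most like Lingo1 was Map6, a microtubule-stabilising protein gene (r = 0.985). With 4 groups that stand apart, a high r over 16 libraries rests mainly on the group means.

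Other genes of the same pathways were described by lists, with counts against the empty vector to be read beside the shares of all genes called that are given above. Of 6 measured genes for other Nogo receptor ligands, 0 rose and 2 fell with the unmutated hairpin, 3 rose and 2 fell with the 2bp hairpin, and 2 rose and 4 fell with the 5bp hairpin (median log2 fold changes -0.12, 0.10 and -0.55). Lgi1, a secreted ligand of the receptor, fell with the 5bp hairpin (-0.77 ± 0.05; edgeR adjusted p = 3.06e-12). Adgrb1, an adhesion receptor gene, fell with the unmutated (-0.43 ± 0.04; edgeR adjusted p = 2.42e-08) and the 5bp hairpin (-0.33 ± 0.04; edgeR adjusted p = 3.59e-07). With the 2bp hairpin Vcan rose (0.76 ± 0.10; edgeR adjusted p = 4.53e-06). Acan (-3.24 ± 0.51; edgeR adjusted p = 9.12e-05) and Bcan (-1.04 ± 0.28; edgeR adjusted p = 0.00615) fell with that hairpin. Mag, the gene of myelin-associated glycoprotein, did not pass the filter on low counts.

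Of 14 measured co-receptors and other receptors, 4 rose and 6 fell with the unmutated hairpin, 3 rose and 5 fell with the 2bp hairpin, and 4 rose and 6 fell with the 5bp hairpin (medians 0.01, 0.08 and -0.14). Nus1, which encodes the Nogo-B receptor, fell with the 2bp hairpin to 56.7 ± 2.89 CPM, against 124 ± 3.61 CPM with the empty vector (SD, n = 4 each; log2 fold change -1.13 ± 0.05; edgeR adjusted p = 2.42e-15). Ptprf, a receptor phosphatase gene, fell with the unmutated hairpin to 158 ± 8.43 CPM, against 302 ± 12.2 CPM with the empty vector (-0.93 ± 0.05; edgeR adjusted p = 7.31e-13). Tnfrsf19, whose product TROY can stand in for the p75 neurotrophin receptor in the Nogo receptor complex, fell with the 5bp hairpin (-1.04 ± 0.08; edgeR adjusted p = 9.55e-10). Tspan3 rose with the 2bp hairpin (0.73 ± 0.04; edgeR adjusted p = 2.79e-12), and Plxna2 rose with the 5bp hairpin (0.46 ± 0.04; edgeR adjusted p = 3.25e-09).

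Of 17 genes of the RhoA arm, 5 rose and 4 fell with the unmutated hairpin, 12 rose and 1 fell with the 2bp hairpin, and 5 rose and 6 fell with the 5bp hairpin (medians -0.01, 0.24 and 0.03). With the 2bp hairpin the LIM kinase genes Limk1 (0.59 ± 0.05) and Limk2 (0.56 ± 0.04) rose, and Gna13, a G protein gene upstream of RhoA, fell (-1.07 ± 0.07; edgeR adjusted p at most 5.50e-10 for the 3). Cfl1, the cofilin gene that LIM kinases control, fell with the 5bp hairpin to 192 ± 20.2 CPM, against 605 ± 17.7 CPM with the empty vector (-1.66 ± 0.06; edgeR adjusted p = 8.83e-16). Of 22 other genes that shape the endoplasmic reticulum, 9 rose and 5 fell with the unmutated hairpin, 10 rose and 8 fell with the 2bp hairpin, and 6 rose and 9 fell with the 5bp hairpin (medians 0.02, 0.07 and -0.03). Atl1, the gene of the membrane-fusing atlastin of neurons, fell with the unmutated hairpin to 60.3 ± 2.41 CPM, against 120.3 ± 2.52 CPM with the empty vector (edgeR adjusted p = 1.10e-14). Its relative Atl3 rose with the 2bp hairpin to 174 ± 6.09 CPM, against 42.6 ± 1.49 CPM with the empty vector (2.03 ± 0.05; edgeR adjusted p = 1.30e-19), and Reep5, a tubule-shaping gene, fell to 161 ± 5.11 CPM, against 450.4 ± 7.63 CPM with the empty vector (-1.49 ± 0.04; edgeR adjusted p = 1.80e-17).

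Of 12 genes of amyloid precursor processing, the pathway in which Rtn3 and other reticulons bind BACE1, 5 rose and 5 fell with the unmutated hairpin, 9 rose and 3 fell with the 2bp hairpin, and 3 rose and 6 fell with the 5bp hairpin (medians -0.10, 0.30 and -0.22). Bace1 itself fell with the 5bp hairpin (-0.55 ± 0.04; edgeR adjusted p = 4.69e-10), and App, the precursor gene, fell with the unmutated (-0.36 ± 0.05; edgeR adjusted p = 1.35e-06) and the 5bp hairpin (-0.48 ± 0.05; edgeR adjusted p = 8.63e-09). Of 12 measured genes of coenzyme Q synthesis, the pathway of Rtn4ip1, 4 rose and 5 fell with the unmutated hairpin, 7 rose and 3 fell with the 2bp hairpin, and 7 rose and 2 fell with the 5bp hairpin (medians -0.03, 0.32 and 0.20). Coq8a, a kinase-like gene of the pathway, fell with the 2bp hairpin (-1.02 ± 0.11; edgeR adjusted p = 7.88e-08) and rose with the 5bp hairpin (0.49 ± 0.11; edgeR adjusted p = 0.000485). Coq8b (0.71 ± 0.06, edgeR adjusted p = 2.24e-09) and Coq9 (0.46 ± 0.05, edgeR adjusted p = 1.17e-07) rose with the 2bp hairpin. Fdxr (0.72 ± 0.08, edgeR adjusted p = 1.30e-07) and Coq6 (0.46 ± 0.08, edgeR adjusted p = 2.28e-05) rose with the 5bp hairpin. The list thus held genes called both ways with each hairpin, more of them higher than lower with the 2bp and the 5bp hairpin.

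**Figure D5:**
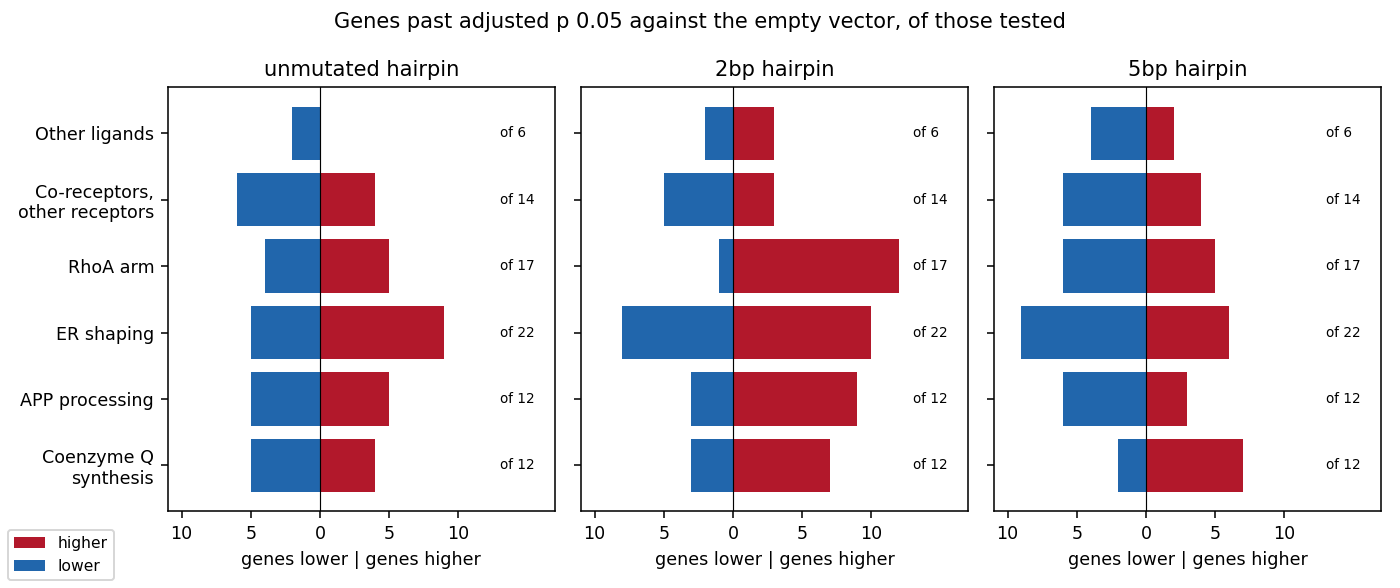
Number of genes past an adjusted p of 0.05 against the empty vector that were higher (right of 0) or lower (left of 0), for 6 lists of pathway genes (y axis) and the 3 hairpins (panels), with the number tested in each list at the right. Most lists hold genes moved in both directions, and the RhoA arm with the 2bp hairpin has 12 genes higher and 1 lower.

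The defining genes of neurons were present in every group, as the label of the cultures says. Summed over 8 pan-neuronal markers, the level was 5211 to 5410.3 CPM with the unmutated, 5915 to 6382 CPM with the 2bp and 5897 to 6453 CPM with the 5bp hairpin, and 6069.9 to 6456 CPM with the empty vector. The unmutated-hairpin libraries lay below the rest, and the 2bp and 5bp libraries overlapped the empty vector. Of the 8 markers, 0 were called higher and 6 lower with the unmutated hairpin. The calls were 3 higher and 4 lower with the 2bp, and 2 higher and 2 lower with the 5bp hairpin. Inhibitory neuron markers (8 genes) summed to 159 to 291, 186 to 273 and 269 to 353 CPM with the unmutated, 2bp and 5bp hairpin, against 590.1 to 669.5 CPM with the empty vector, and so their sum was lower with all 3 hairpins. Of these 8 genes, 7, 6 and 7 were called lower and 0, 1 and 0 higher, in the same order. Excitatory neuron markers (7 genes) summed to 1733 to 1827, 1858 to 1955 and 1015 to 1111 CPM, against 1848 to 2039 CPM with the empty vector, in the same order. This sum hid genes that moved both ways. Of the 7 genes, 3, 5 and 1 were called higher and 3, 1 and 4 lower. All these counts are to be read beside the shares of all genes called that are given above. Astrocyte markers (7 genes) summed to 277 to 492, 178 to 310.0 and 104 to 261 CPM, against 254 to 402 CPM with the empty vector. Of these, 1, 4 and 1 were called lower and 0 higher with any hairpin. Microglial and endothelial markers summed to at most 3.99 and 3.25 CPM in any library, and fibroblast and mural markers (6 genes) to 25.6 to 39.9, 22.5 to 51.7 and 23.7 to 177 CPM, against 25.6 to 35.2 CPM with the empty vector. Among the 5bp libraries, library 3 held the highest fibroblast and mural sum (177 CPM, against at most 40.6 CPM in the other 3), and leaving it out changed no call of the 10 genes against the empty vector. Some defining markers were at 0 in every library of a group: the microglial gene C1qa with the unmutated and the 2bp hairpin and C1qb with the empty vector, and the endothelial gene Cldn5 with the 2bp hairpin. The part of these shifts in the results for the 10 genes was not tested.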

How the data were processed

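The deposited table holds the raw counts per Ensembl gene that the authors made from directional, rRNA-depleted total RNA libraries. Per the submitters' processing notes the tools were STAR 2.7.2b, featureCounts, edgeR, cutadapt 1.15, Trim Galore 0.6.0 and bcl2fastq 2.20.0.422, with GRCm38.p6 as the build. The annotation release, the strand setting and how multi-mapping reads were counted are not given in the sources used here. Symbols, positions and exon lengths came from GENCODE vM21 (GRCm38): 55154 of 55335 gene IDs matched, 54587 with their version.

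Genes were filtered with filterByExpr, scaled with TMM factors and tested by quasi-likelihood with robust dispersion in edgeR 4.0.16 (R 4.3.3), with 1 coefficient per group over all 16 libraries. Tests were 2-sided, with Benjamini-Hochberg adjustment over all 19479 genes and a threshold of 0.05. The fit was checked on simulated data with few changed genes and no pairing of libraries. The check therefore does not cover data in which many genes differ or libraries are paired. Same-numbered libraries deviated together in 21 of 24 pairs (correlation over 0.1, lowest -0.0183). They did so in all 4 pairs of each of the 3 comparisons without the 5bp hairpin. The main fit had no replicate block, so its p-values take no account of such pairing, and the block was run as an alternative. The labels do not say what a number marks. Alternatives were other scaling factors, DESeq2 1.42.0, other filters, the compared groups alone, a replicate block, the fit without Gm26917 and Gm42418, and each library left out. All 10 genes are given against the empty vector, and some of them between hairpins. Genes that overlap them are named, apart from 2700081O15Rik, which shares 4 exonic bases with Rtn3 on the opposite strand. Up to 3 called genes per list and comparison with the empty vector are named, and up to 3 genes of like pattern (log2 of CPM plus 0.1). The 10 genes, the lists and the rule were chosen with earlier results of these data known.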

Additional observations from a re-analysis of the deposited data

Results flagged for a closer look

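Each of the 10 genes was examined in each of the 4 groups for a library far from the other 3, which gives 40 sets of 4 values, and 2 sets held one by Dixon's test. Chance alone flags about 5% of such sets. Omg in unmutated-hairpin library 3 stood at 31.9 CPM, above the other 3 libraries of that group at 23.5, 23.9 and 24.3 CPM, and still below every empty-vector library. Rtn4rl2 in unmutated-hairpin library 2 stood at 47.4 CPM, below the other 3 libraries at 57.0, 58.0 and 58.2 CPM. Without that library the unmutated hairpin no longer differed from the empty vector in Rtn4rl2 at an adjusted p of 0.05.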

How the results depend on the processing

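Rtn4 kept its direction and its side of the threshold in all 6 comparisons under all 24 alternatives, with log2 fold changes of -4.84 to -4.81 for the unmutated, -2.81 to -2.75 for the 2bp and -0.08 to -0.03 for the 5bp hairpin against the empty vector. The count of the 10 genes called ran from 5 to 7, 5 to 7 and 7 to 8 in these comparisons. Dividing by the longest transcript in place of all exons moved the Rtn4 share of the reticulons to 1.34% with the unmutated, 4.55% with the 2bp and 24.8% with the 5bp hairpin and 24.8% with the empty vector. Of 1296 tests of the other 9 genes under an alternative, 12 lost a call, 10 gained one and 6 turned direction, all 6 between values near 0 that were not called either way. These were Rtn3 for the 2bp hairpin in a fit of the 8 libraries alone (-0.0027) and 5 cases of a single library left out. The 1296 tests, and those of Rtn4, include comparisons in which the library left out belonged to neither compared group. Such tests could change little. Over all libraries left out in turn, the log2 fold change ranged from -0.071 to 0.00762 for Rtn4rl1 with the unmutated hairpin, -0.00948 to 0.0813 for Rtn2 with the 5bp hairpin, and -0.0181 to 0.0734 for Rtn2 and -0.0645 to 0.00788 for Lingo1 between the unmutated and the 5bp hairpin. The cause of these changes was not tested.

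The replicate numbers paired the libraries in 3 comparisons by the check on deviations, and in those the replicate block changed the call of Rtn4r with the unmutated hairpin (log2 fold change -0.11) and no other call among the 10 genes. In the comparisons with the 5bp hairpin, where library 3 did not follow its number, the block gained calls for Rtn1 against the empty vector (0.09; adjusted p = 0.0462) and for Rtn4r between the unmutated and the 5bp hairpin (0.11; adjusted p = 0.0395). The lowest count of any of the 10 genes in any library was 532.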
